A study of Macaca fascicularis with 6 samples.

Results

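The expression of *PRG4*, which encodes lubricin, was examined together with that of *CREB5*, *ERG*, *ABI3BP*, *THBS4* and *CLU*, 5 genes linked to the superficial zone of articular cartilage. These 6 genes were chosen by name. All of them were found among the 14020 genes listed for the 4 tissues (cyiPS-Cart before and after transplantation, cyAC and cyFT), and among the 13950 genes listed for cyiPSC and a larger set of pre-transplant cyiPS-Cart cells. CyiPS-Cart is a cartilage organoid grown from cynomolgus monkey iPS cells (cyiPSC) that carry EGFP at the AAVS1 locus, in chondrogenic medium with BMP2, TGF-β1 and GDF5. Post-transplant cyiPS-Cart was the tissue of chondral defects of the knee that had received such organoids, taken 4 months after surgery from wild-type recipients aged 3 to 4 years. Defects that had received nothing gave the fibrous tissue cyFT at the same time, and intact articular cartilage gave cyAC. The cells carried no per-cell call of donor or host here, so the post-transplant sample was taken as a whole. Per the study's methods, each group had 3 monkeys per time of harvest and 2 transplanted sites of a monkey were combined for single-cell work; how many monkeys entered each library was not given in the sources used here.

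Lubricin is a large mucin-like glycoprotein that coats the joint surface and lowers friction. In articular cartilage it is made mainly by the flattened chondrocytes next to the joint cavity, and synovial lining cells make it as well. TGF-β and mechanical loading are known to raise its expression, and CREB5, a transcription factor of the ATF/CREB family, is known to act in the articular chondrocytes that make it. ERG is a transcription factor of the ETS family found in developing joints and in endothelium. *ABI3BP* and *THBS4* encode glycoproteins of the extracellular matrix, the second of which is prominent in tendon. *CLU* encodes clusterin, an extracellular chaperone that is abundant at the cartilage surface.

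Each sample was 1 pool of single cells, with no replicate, so no test between samples was possible. The samples of the comparison among tissues held 320 cells each, and cyiPSC and the larger pre-transplant set held 2500 and 3527 cells. Of the 320 pre-transplant cells, 300 were also in the larger set with identical counts. The median depth ran from 27499.5 reads per cell in cyFT to 143075 in cyiPSC. Post-transplant cells had medians of 80335.5 reads and 2594.5 genes, with 1.97% mitochondrial reads. The 320 pre-transplant cells had 58413.5 reads, 3765 genes and 5.51%. CyiPSC and pre-transplant cyiPS-Cart shared a library, cyAC and cyFT shared another, and post-transplant cyiPS-Cart had its own. Differences between tissues of different libraries therefore cannot be told apart from differences between the libraries. Between these libraries, 2, 4 and 0 cell numbers were shared. At least 3 of the 6 chondrocyte markers were read in 99.7% of pre-transplant cells, in every post-transplant and cyAC cell and in 95.6% of cyFT cells. Levels are given as CPM, the reads of a gene per 1000000 reads of all listed genes, summed over the cells of a sample. The 95% intervals (exact Poisson for levels, exact Clopper-Pearson for shares of cells, exact conditional for ratios) cover counting error only. Reads without molecular identifiers are not independent molecules, so the intervals are narrower than the true uncertainty.

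*PRG4* was almost absent from cyiPSC and highest in the tissues taken from the joint surface. Its level was 0.874 CPM (0.786 to 0.968) in cyiPSC, 538 CPM in the pre-transplant cells, 1289 CPM in post-transplant cyiPS-Cart, 4986 CPM (4946 to 5027) in cyAC and 6419 CPM (6372 to 6467) in cyFT. No pair of neighbours in this order had overlapping counting intervals. The larger pre-transplant set stood at 692 CPM (688 to 695), outside the interval of its smaller counterpart, which gives a first view of how far such a level moves between overlapping draws of cells from 1 library. In log2 terms, post-transplant was 1.26 above pre-transplant with the 320 cells and 0.90 above it with the larger set, so that the difference fell on either side of the 2-fold line. Post-transplant cyiPS-Cart was below cyAC by a factor of 3.87 (3.82 to 3.92) and below cyFT by a factor of 4.98 (4.92 to 5.04).

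**Figure D1:**
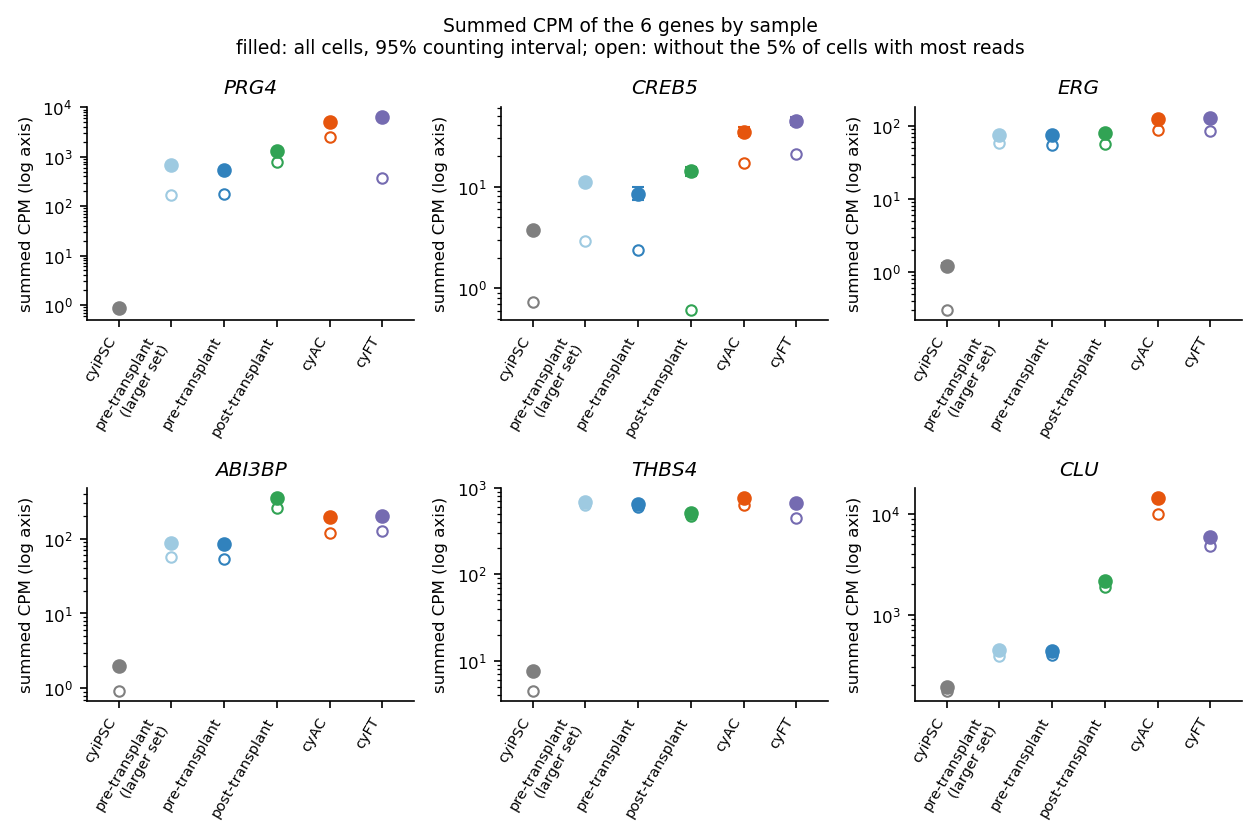
Summed level of each gene (CPM, log axis) in the 5 samples and in the larger pre-transplant set; filled points are all cells with 95% counting intervals, open points the level without the 5% of cells with most reads of that gene. *PRG4* in cyFT drops from 6419 to 372 CPM when those cells are left out, a larger drop than for *THBS4* and *CLU*; the open point of *PRG4* in cyiPSC is at 0 and is not drawn.

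The summed levels hid different distributions over cells. The 16 cells with most *PRG4* reads, 5% of a sample, held 69.3% of the *PRG4* reads in pre-transplant cyiPS-Cart, 42.2% in post-transplant cyiPS-Cart, 52.1% in cyAC and 94.5% in cyFT. Without them the levels were 175, 795, 2558 and 372 CPM. The order of the tissues then changed, with cyFT below post-transplant cyiPS-Cart and far below cyAC. The log2 difference of cyAC over cyFT went from -0.36 to 2.78, and that of post-transplant over cyFT from -2.32 to 1.09. With a stricter filter on cells, that of cyAC over cyFT was 0.04.

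The share of cells with any *PRG4* read was 16.6% (12.7 to 21.1) in pre-transplant cyiPS-Cart, 70.9% (65.6 to 75.9) in post-transplant cyiPS-Cart, 97.2% (94.7 to 98.7) in cyAC and 87.2% (83.0 to 90.6) in cyFT. In cyiPSC it was 5 of 2500 cells. These shares are not comparable between libraries. The authors' background correction left no *PRG4* count from 1 to 21 in the library of cyiPSC and pre-transplant cyiPS-Cart, whose lowest count above 0 was 22, while single reads remained in the others. In cyFT, 15 of the 16 cells with reads of at least 3 immune markers, which should lack *PRG4*, also had *PRG4* reads, at a median of 159 CPM and a median depth of 46085.5 reads. The other cyFT cells had a median of 132 CPM at 26513.5 reads, so low *PRG4* levels in cyFT were at the level of cells that should not make it.

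A level of 1000 CPM in a cell was chosen after the distributions had been seen. In cyFT 1 of the 16 immune-marked cells was above it, at 2206 CPM. Pre-transplant and post-transplant cyiPS-Cart had no such cells and cyAC had 1, so this background was not measured there. The level was reached by 34 of 320 cells in pre-transplant cyiPS-Cart (10.6%, 7.47 to 14.5), 89 in post-transplant cyiPS-Cart (27.8%, 22.97 to 33.1), 131 in cyAC (40.9%, 35.5 to 46.5) and 36 in cyFT (11.25%, 8.005 to 15.2). The larger pre-transplant set gave 430 of 3527 cells (12.2%, 11.1 to 13.3), and cyiPSC 2 of 2500. A level of 10000 CPM was reached by 4, 13, 39 and 15 cells of the 4 tissues in the same order. At the common minimum of 22 reads the counts of cells were 53, 150, 139 and 51, without regard to the greater depth of the post-transplant cells. By each of these measures more cells of post-transplant than of pre-transplant cyiPS-Cart held *PRG4*, and cyFT held few such cells beside cyAC.

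**Figure D2:**
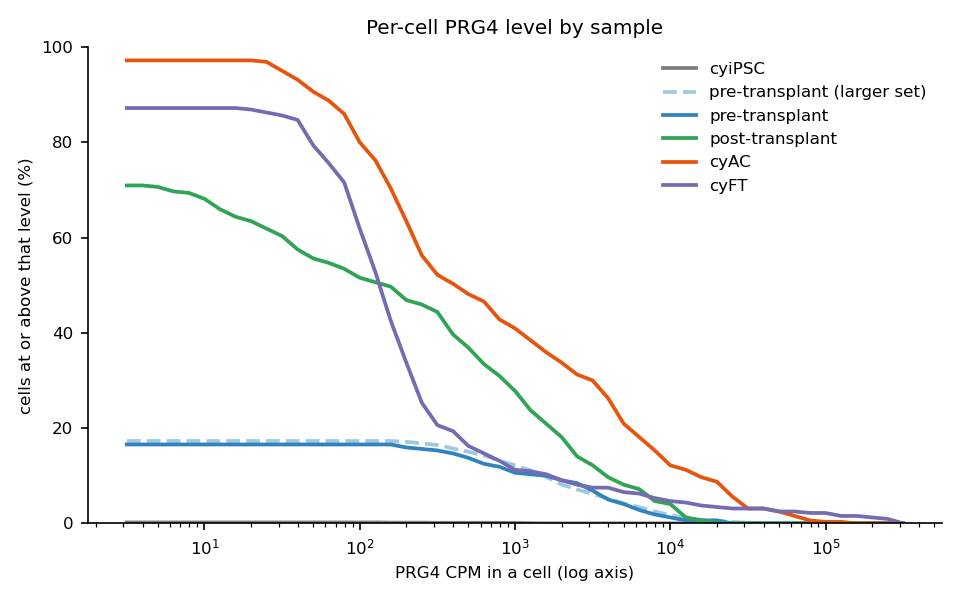
Percent of cells (y axis) whose *PRG4* level is at or above the CPM on the x axis (log axis), for the 5 samples and the larger pre-transplant set. CyAC lies above post-transplant cyiPS-Cart up to its highest cell, and cyFT falls from 61.9% of cells at 100 CPM to 11.25% at 1000 CPM but reaches 312913 CPM in its highest cell.

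The cells with most *PRG4* had lower levels of cartilage genes than other cells in cyFT, and by less in cyAC. In cyFT the 6 chondrocyte markers summed to 638 CPM in the cells at or above 10000 *PRG4* CPM and 34888 CPM in those under 1000. The sums in cyAC were 53735 and 70476 CPM. The 15 cyFT cells at or above 10000 CPM held 93.6% of the *PRG4* reads of that sample. *ACAN*, which encodes aggrecan, stood at 237 CPM in these cells and 3438 CPM in the 284 cyFT cells under 1000 CPM, and *SOX9*, the gene of a chondrocyte transcription factor, at 46.5 and 582 CPM. *COL2A1*, the type II collagen gene of cartilage, was listed at 0 in all 15 cells and above 0 in 110 of the 284. The background correction had left no *COL2A1* count from 1 to 210 in cyFT, and the gene was at 0 in 41 of the 320 cyAC cells too, so a 0 does not bound its level. Of the 5 listed synovial lining markers, 4 were at least 2-fold higher in the 15 cells and 1 lower, beside 14.9% and 31.7% of 7075 genes tested in the same split. *CLIC5* was read in 9 of 15 cells (1885 CPM) and in 0 of 284, with no count above 0 below 14 in cyFT. It entered the count only through its level in the 15 cells, so its call as higher was fixed in advance and is no support. *HBEGF*, a growth factor gene, was at 6151 against 415 CPM, *CD55*, a complement regulator gene, at 4172 against 755 CPM, and *FN1*, the fibronectin gene, at 43725 against 10602 CPM. *PDPN*, the gene of podoplanin, went the other way, with 42.3 against 882 CPM. At least 3 of these 5 markers were read in 14 of the 15 cells and in 200 of the 284, and at least 3 of the 6 chondrocyte markers in 9 of the 15 and in 276 of the 284. Of the 6 listed fibroblast markers, *COL3A1* was at 2598 against 10636 CPM and *COL1A1* at 2435 against 19382 CPM. The 6 summed to 10932 CPM in the 15 cells and 49605 CPM in the 284, beside the same 31.7% of all genes at least 2-fold lower.

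In cyAC, by contrast, 33 of the 39 cells at or above 10000 CPM had *COL2A1* reads (34604 CPM), as had 165 of the 189 cells under 1000 CPM (49078 CPM). *ACAN* stood at 5522 and 4943 CPM in these cells, *HBEGF* at 693 and 895 CPM, and *CLIC5* was read in 1 of the 39. *PDPN* was lower in these cells too, at 54.8 against 743 CPM. In post-transplant cyiPS-Cart all 13 cells at or above 10000 CPM, and in the larger pre-transplant set 61 of 62, had *COL2A1* reads. *CLIC5* was read in none of these 13 and 62 cells. The 15 cyFT cells had a median depth of 26220 reads, against 26728 in the 284 cells under 1000 CPM and 27576 in all 305 cells under 10000 CPM, and 0 of the 15 had 3 immune markers. The 15 cells were picked out after their *PRG4* levels were seen, and the part of the synovial lining markers in the *PRG4* level of cyFT was not tested.

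**Figure D3:**
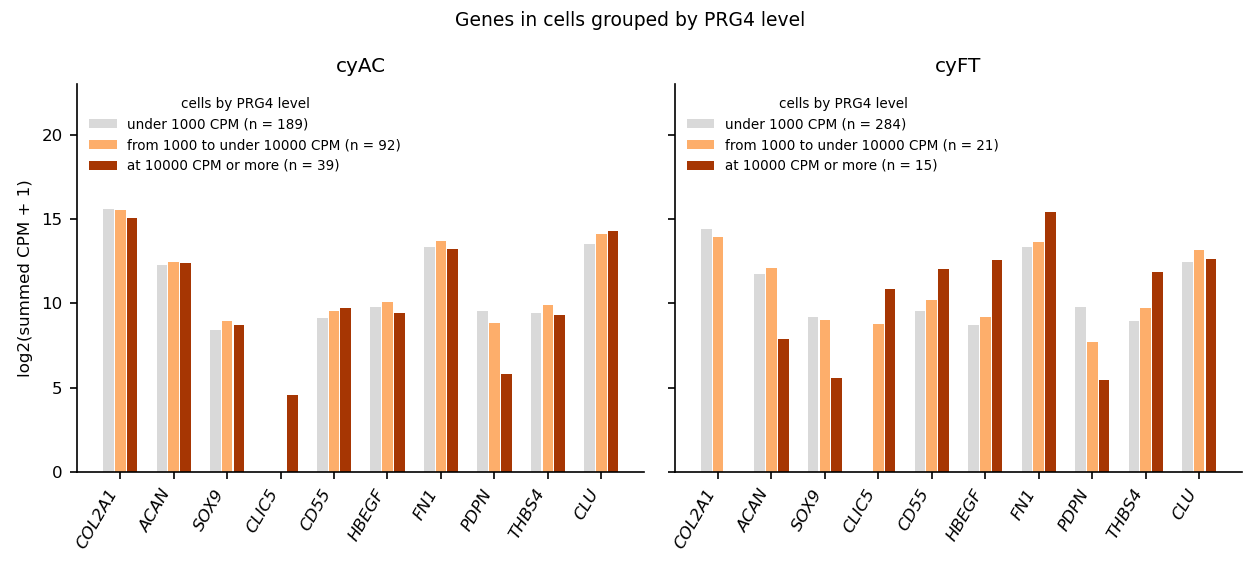
Levels (log2 of summed CPM plus 1) of chondrocyte genes (*COL2A1*, *ACAN*, *SOX9*), the 5 listed synovial lining markers (*CLIC5*, *CD55*, *HBEGF*, *FN1*, *PDPN*), *THBS4* and *CLU* in cells of cyAC and cyFT grouped by their *PRG4* level; bars are to be compared within a gene. In cyFT the 15 cells with most *PRG4* have no *COL2A1* bar (listed at 0 after background correction), the tallest *CLIC5*, *CD55*, *HBEGF*, *FN1* and *THBS4* bars and the lowest *PDPN* bar, while in cyAC the 39 such cells have *COL2A1* and *ACAN* bars near those of the other cells.

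*CREB5* was a low and sparse transcript whose level followed the same order of samples as that of *PRG4*. It stood at 3.73 CPM in cyiPSC, 8.55 CPM (7.35 to 9.88) in pre-transplant cyiPS-Cart, 14.1 CPM (12.8 to 15.5) in post-transplant cyiPS-Cart, 34.8 CPM (31.6 to 38.4) in cyAC and 44.6 CPM (40.8 to 48.8) in cyFT. No neighbouring intervals overlapped. The share of cells with *CREB5* reads was 11.25% (8.005 to 15.2) before and 7.81% (5.12 to 11.3) after, and 23.1% and 21.6% in cyAC and cyFT. In post-transplant cyiPS-Cart the 25 cells with reads carried the whole signal, 16 of them 96.0% of it, and without those 16 the log2 difference of post-transplant over pre-transplant turned from 0.66 to -1.06. The difference to cyAC and cyFT was larger, with post-transplant cyiPS-Cart lower by factors of 2.47 (2.15 to 2.84) and 3.17 (2.77 to 3.61). Thinned to 12191 reads per cell, 6.27% of cells before and 5.63% after transplantation had *CREB5* reads, and 15.3% and 18.75% in cyAC and cyFT.

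*ATF2*, *ATF7*, *CREB1*, *CREM* and *ATF1* are further genes of the broad ATF/CREB family. All 5 passed the filter on low values in post-transplant over pre-transplant. Of these, 0 were at least 2-fold higher and 1 was at least 2-fold lower, beside 8.18% and 18.6% of all 7486 genes tested. That was *ATF1*, at 80.9 CPM before and 32.3 CPM after. In cyAC over pre-transplant 0 of 5 passed 2-fold in either direction, beside 10.4% of all 7551 genes higher and 15.7% lower. Counts of this size in a list of 5 are near the background. Genes known to be raised by cAMP and CREB showed 4 of 8 at least 2-fold higher after transplantation (*NR4A1*, *NR4A2*, *PER1* and *FOS*) and 0 lower, beside the same 8.18% and 18.6%. *FOS*, an immediate early gene, went from 623 to 5742 CPM and *PER1*, a clock gene, from 9.11 to 264 CPM. In post-transplant over cyAC the same 4 genes were higher, with *FOS* at 754 CPM and *PER1* at 65.6 CPM in cyAC, and 3 were lower, *NR4A3* (9.41 against 23.7 CPM), *CREM* (18.1 against 49.3 CPM) and *PDE4D* (29.9 against 76.4 CPM), beside 10.2% of all genes higher and 14.8% lower.

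*ERG* differed little between the cartilage tissues. It was at 1.21 CPM in cyiPSC, 75.6 CPM (72.0 to 79.4) in pre-transplant cyiPS-Cart, 80.7 CPM (77.5 to 84.0) in post-transplant cyiPS-Cart, 125 CPM (119 to 132) in cyAC and 127 CPM (120 to 133) in cyFT. The intervals of pre-transplant and post-transplant overlapped (ratio 1.07, 1.00 to 1.14), as did those of cyAC and cyFT. Post-transplant cyiPS-Cart was lower than cyAC by a factor of 1.55 (1.45 to 1.65), under the 2-fold line. The share of cells with *ERG* reads was 57.8%, 44.7%, 53.1% and 44.4% in these 4 tissues, and 36.1%, 30.6%, 43.2% and 35.8% after thinning. *ERG* is also an endothelial gene. The 8 listed endothelial markers summed to 1.22 CPM in pre-transplant cyiPS-Cart, 9.04 in post-transplant cyiPS-Cart, 21.1 in cyAC and 20.6 in cyFT, and *VWF* and *CDH5* had no reads in the 320 cells of the first and second of these (0.0374 and 0.00832 CPM in the larger pre-transplant set). At least 3 of these markers were read in 0, 0, 1 and 1 cells.

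Among the ETS relatives of *ERG*, 4 of the 5 passed the filter in each of these comparisons. *ETS1* was at 235 CPM in pre-transplant cyiPS-Cart, 57.4 CPM in post-transplant cyiPS-Cart and 443 CPM in cyAC, so that it was over 2-fold lower after transplantation and under 2-fold higher in cyAC than in pre-transplant cyiPS-Cart. *ETV5* was at 24.4, 77.9 and 111 CPM in the same order, past 2-fold both after transplantation and in cyAC over pre-transplant. *ETS2* was at 54.8, 67.6 and 112 CPM, past 2-fold in cyAC over pre-transplant. In all 1 of 4 was higher and 1 lower after transplantation, beside 8.18% and 18.6% of all genes, and 2 of 4 higher and 0 lower in cyAC, beside 10.4% and 15.7%. *FLI1*, a close relative of *ERG* that also marks blood and endothelial cells, was at 14.7, 28.7 and 18.6 CPM.

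*ABI3BP* was highest after transplantation, unlike the other 5 genes. It stood at 1.98 CPM in cyiPSC, 85.6 CPM (81.7 to 89.6) in pre-transplant cyiPS-Cart, 347 CPM (340 to 353) in post-transplant cyiPS-Cart, 196 CPM (188 to 204) in cyAC and 204 CPM (195 to 212) in cyFT. Post-transplant was 4.05-fold (3.85 to 4.26) above pre-transplant and 1.77-fold (1.69 to 1.85) above cyAC, while cyAC and cyFT had overlapping intervals. Cells with *ABI3BP* reads made up 53.1% (47.5 to 58.7) before and 74.4% (69.2 to 79.1) after transplantation, and 51.6% in both cyAC and cyFT. Thinned shares were 36.7%, 61.9%, 43.5% and 45.1%.

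*THBS4* differed least of the 6 genes among the tissues. Its level was 7.52 CPM in cyiPSC, 656 CPM (645 to 667) in pre-transplant cyiPS-Cart, 508 CPM (500.3 to 517) in post-transplant cyiPS-Cart, 759 CPM (743 to 775) in cyAC and 669 CPM (653 to 684) in cyFT. The intervals of cyFT and pre-transplant cyiPS-Cart overlapped. It was read in 99.4% of cells before and after transplantation, in 97.8% of cyAC cells and in 86.25% of cyFT cells. Of the other 3 thrombospondin genes tested, 1 was at least 2-fold higher after transplantation (*THBS3*, 203 and 416.5 CPM) and 1 lower (*THBS2*, 686 and 230 CPM), beside 8.18% and 18.6% of all genes. *THBS1* stood at 1448 and 1175 CPM, and *THBS2* at 68.7 CPM in cyAC.

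*CLU* showed the largest differences among the tissues. Its level was 194 CPM (192 to 195) in cyiPSC, 438 CPM (429 to 447) in pre-transplant cyiPS-Cart, 2139.5 CPM (2123 to 2156) in post-transplant cyiPS-Cart, 14457 CPM (14389 to 14526) in cyAC and 5846.5 CPM (5802 to 5892) in cyFT. The median cell had 353, 1878, 9329 and 4548 CPM in the 4 tissues, so that the order held for the typical cell too. Post-transplant cyiPS-Cart was 4.89-fold (4.78 to 4.99) above pre-transplant and below cyAC by a factor of 6.76 (6.70 to 6.82). The share of cells with reads was 96.25%, 99.4%, 97.2% and 78.75%. In the library of cyAC and cyFT the background correction had left no *CLU* count from 1 to 46, so the cyFT share is one of cells with at least 47 reads. Of the 3 stress genes listed with clusterin that passed the filter, 1 was at least 2-fold higher after transplantation and 1 lower, beside 8.18% and 18.6% of all genes tested. *HSPA5*, a chaperone gene of the endoplasmic reticulum, was at 2475 CPM before and 449.6 CPM after transplantation, and *DDIT3*, a gene of the unfolded protein response, at 25.5 and 73.1 CPM.

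Counted together, 3 of the 6 genes (*PRG4*, *ABI3BP* and *CLU*) were at least 2-fold higher in post-transplant than in pre-transplant cyiPS-Cart and 0 were lower, beside 8.18% and 18.6% of the 7486 genes tested. The median log2 difference of the 6 was 0.96, and that of all genes tested -0.26. In cyAC over pre-transplant, 4 of 6 (with *CREB5*) were higher and 0 lower, beside 10.4% and 15.7% of 7551 genes. In post-transplant over cyAC, *PRG4*, *CREB5* and *CLU* were at least 2-fold lower and 0 were higher, beside 14.8% and 10.2% of 7089 genes. The same 3 genes were lower in post-transplant than in cyFT and 0 higher, beside 19.3% and 6.69% of 7216 genes. *CLU* alone was higher in cyAC than in cyFT and 0 were lower, beside 3.64% and 8.96% of 6897 genes. These comparisons share samples and are not independent of each other. All 6 genes were at least 2-fold higher in the larger pre-transplant set than in cyiPSC, beside 16.5% of 8571 genes higher and 37.5% lower. The ratios ran from 2.31 (2.29 to 2.33) for *CLU* to 792 (714 to 880) for *PRG4*. In cyiPSC all but *CLU* lay under the filter of 10 CPM. Those genes passed it only through the pre-transplant set and could not have been called lower.

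The other 5 genes were next set against *PRG4* within each sample. Cells were ranked by their *PRG4* level and split into 3 parts of equal size (tertiles), of which the highest was compared with the lowest. In pre-transplant cyiPS-Cart most cells had no *PRG4* read, so cells with reads (53, or 610 in the larger set) were compared with cells without (267, or 2917). In the other tissues each outer tertile held 107 cells. All 5 genes passed the filter on low values in the larger set, cyAC and cyFT, and 4 did in the 320 pre-transplant and the post-transplant cells, where *CREB5* did not.

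In cyAC, *ABI3BP*, *CLU* and *THBS4* were higher in the cells with most *PRG4*. *ABI3BP* was at 110, 195 and 296 CPM in the low, middle and high tertile, a log2 difference of 1.42 between the outer tertiles. *CLU* was at 11277, 13492 and 19048 CPM (log2 0.76), and *THBS4* at 582, 848 and 879 CPM (log2 0.59). *CREB5* (33.2, 37.8 and 33.9 CPM) and *ERG* (126, 112 and 136 CPM) did not differ between the outer tertiles beyond counting error. *ABI3BP* alone was past 2-fold and none was lower, beside 5.58% and 6.79% of 6775 genes. Its log2 difference was 0.83 on the mean of per-cell CPM and 0.66 on thinned cells, both under 2-fold.

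In cyFT none of the 5 genes reached 2-fold, beside 6.08% of 6887 genes higher and 4.84% lower. *THBS4* came nearest, at 548, 423 and 1039.7 CPM in the 3 tertiles (log2 0.92), and was at 3781 CPM in the 15 cells at or above 10000 *PRG4* CPM, of which 13 had *THBS4* reads. *CREB5* was at 42.8, 29.6 and 63.0 CPM and was read in 5 of those 15 cells. *CLU* was at 6405, 4737 and 6659 CPM, and was read in 6 of the 15 cells against 230 of the 284 under 1000 CPM. *ERG* was at 111, 119 and 148 CPM in the 3 tertiles and at 82.4 CPM in the 15 cells. The low and middle tertiles of cyFT lay at or under 199.8 *PRG4* CPM, around the median of the immune-marked cells. *ABI3BP* was at 246, 155 and 225 CPM in the 3 tertiles, and at 330 CPM in the 15 cells.

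In post-transplant cyiPS-Cart none of the 5 genes reached 2-fold between the outer tertiles. *ABI3BP* was at 341, 373 and 323 CPM in the 3 tertiles, *CLU* at 2489, 1940 and 2048 CPM, *ERG* at 79.0, 96.9 and 65.4 CPM, *THBS4* at 469, 518 and 532 CPM and *CREB5* at 15.7, 13.8 and 13.0 CPM. The log2 differences of the outer tertiles lay between -0.28 and 0.18, beside 4.23% of 6856 genes at least 2-fold higher and 5.29% lower. *ABI3BP* and *CLU*, the pair with the highest ratios of post-transplant over pre-transplant, were not higher in the post-transplant cells with most *PRG4*.

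Before transplantation, the larger set gave the firmer view. *ABI3BP* was at 155 CPM in cells with *PRG4* reads and 72.1 CPM in cells without (2.15-fold, 2.09 to 2.22), past 2-fold beside 0.237% of 7164 genes higher and as many lower, and *CREB5* at 16.3 and 9.79 CPM (1.67-fold, 1.53 to 1.82). *ERG*, *THBS4* and *CLU* had log2 differences of 0.03, 0.11 and -0.09. The 2 kinds of cells had similar depth, with medians of 62099 and 58702 reads. In the 320 cells *ABI3BP* was at 121 and 77.3 CPM, a log2 difference of 0.65, beside 1.64% of 7300 genes at least 2-fold higher and 4.12% lower, and *CREB5* went the other way at 6.25 and 9.08 CPM with an interval of the ratio from 0.432 to 1.05.

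**Figure D4:**
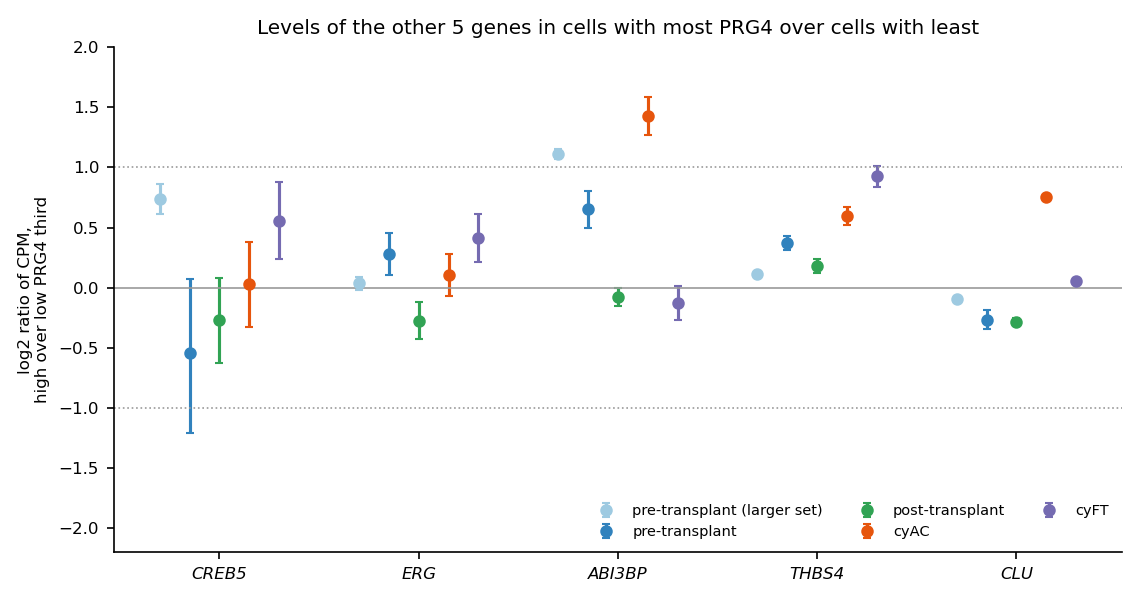
Log2 ratio of the summed CPM of each gene (without a pseudocount) in the cells with most *PRG4* over the cells with least, by sample; bars are 95% counting intervals and dotted lines mark a 2-fold difference. *ABI3BP* in cyAC and in the larger pre-transplant set lies above the upper line, and *CLU* lies above 0 in cyAC and below 0 in pre-transplant and post-transplant cyiPS-Cart.

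Correlations over single cells were taken as well. They are descriptions over the 320 cells of 1 library, and a weak value in such sparse counts is no finding. Of the 15 pairs of the 6 genes, *PRG4* and *CLU* in cyAC had the highest Spearman rho, 0.44, which was above that of 99.97% of the genes read in at least 25% of cells and was 0.45 on thinned cells. The same pair gave -0.08 in pre-transplant cyiPS-Cart, -0.12 in post-transplant cyiPS-Cart and -0.03 in cyFT. *PRG4* with *ABI3BP* gave 0.09 in cyAC, less than with *THBS4* (0.14) or *CLU*, although *ABI3BP* differed most between the tertiles of summed reads. On thinned cyAC cells *ABI3BP* gave 0.11, more than *THBS4* (0.07) and less than *CLU*. In post-transplant cyiPS-Cart *PRG4* with *ABI3BP* gave 0.10. *ABI3BP* and *THBS4* gave 0.31 in cyAC, and *THBS4* with *CLU* 0.29 and with *ERG* 0.26 in cyFT. *PRG4* with *CREB5* lay between 0.00 and 0.06, and with *ERG* between -0.01 and 0.12, in the 4 tissues. *PRG4* with *THBS4* gave 0.20 in post-transplant cyiPS-Cart, 0.07 on thinned cells.

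By mean rho over post-transplant cyiPS-Cart, cyAC and cyFT, the genes most like *PRG4* among 2941 were *KCNMA1*, which encodes a potassium channel (0.29), *INHBA*, the gene of the inhibin beta A chain (0.21), *SERPINA1*, a protease inhibitor gene (0.17), *THBS4* (0.17) and *CRIM1* (0.17). *KCNMA1* had 0.29, 0.34 and 0.24 in the 3 tissues and stayed first on thinned cells, while *THBS4* went to rank 30. The least like were *TNC*, the tenascin-C gene (-0.18), *NREP* (-0.15), *THBS2* (-0.14), *ANGPTL2* (-0.13) and *LMNA* (-0.13). The tissues differed for some of these. In post-transplant cyiPS-Cart *CRIM1* was at 0.01, *ANGPTL2* at 0.05 and *LMNA* at 0.03. The middle 90% of all genes lay between -0.05 and 0.08.

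*THBS4* was most like *FMOD* (mean rho 0.45 over 4 tissues, from 0.37 to 0.54), *SPARC* (0.35) and *DCN* (0.34), genes of the collagen-binding matrix. *CLU* was most like *FMOD* (0.27), *SOD3* (0.26), the gene of extracellular superoxide dismutase, and *SCARA3* (0.25). For *CLU* with *FMOD* the values were 0.13, 0.02, 0.39 and 0.55, so the likeness lay in cyAC and cyFT. *ABI3BP* was most like *COL3A1* (0.23), *COL5A2* (0.20) and *OGN* (0.20), the osteoglycin gene. *COL3A1* had 0.00, 0.22, 0.37 and 0.33 in the 4 tissues, *COL5A2* 0.13, 0.03, 0.34 and 0.32, and *OGN* 0.07, 0.25, 0.21 and 0.27. For *ERG* (*UBE2D4*, *UFC1* and *BCAT1*, 0.14 to 0.15) and *CREB5* (*TUFT1*, *NR2F1* and *NDUFA13*, 0.17 to 0.19 over cyAC and cyFT) the values were weak. *UBE2D4* went to 0.05 and *TUFT1* to 0.06 on thinned cells.

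Most tested genes of the list of other superficial-zone genes were higher in post-transplant than in pre-transplant cyiPS-Cart. The list was made by gene name, and whether its members mark that zone in these tissues was not tested. Of the 15 on the list, 14 were in the matrices and 10 passed the filter in post-transplant over pre-transplant. At least 2-fold higher were 7 (*WIF1*, *DKK3*, *DCN*, *FMOD*, *PRELP*, *CILP* and *SEMA3D*) and lower were 2 (*TPPP3* and *CD44*), beside the 8.18% and 18.6% of all genes. *DCN*, the decorin gene, went from 193 to 6282 CPM, near the 6515 CPM of cyAC, and *CILP*, a gene of cartilage intermediate layer protein, from 25.7 to 734 CPM, against 691 CPM in cyAC. *CD44*, the hyaluronan receptor gene, went from 226 to 15.8 CPM, against 138 CPM in cyAC. Of the 6 fibroblast markers, *COL1A2* (3861 and 25852 CPM) and *COL3A1* (11792 and 34538 CPM) were also at least 2-fold higher after transplantation, and *POSTN* was lower (2248 and 355 CPM). The 6 summed to 25026 CPM before, 71013 after, 8629 in cyAC and 47029 in cyFT, and their part in the levels of the superficial-zone genes was not tested.

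Other genes of this list differed between post-transplant cyiPS-Cart and cyAC. *VIT*, which encodes the matrix protein vitrin, had no reads in the 320 cells before transplantation (0.0666 CPM in the larger set) and stood at 17.4 CPM after it, 769 CPM in cyAC and 310 CPM in cyFT. After transplantation 9.38% of cells had its reads, against 90.3% in cyAC. *VCAM1*, an adhesion molecule gene, was at 5.64, 6.23, 377 and 56.6 CPM in the 4 tissues, and *WIF1*, a gene of a secreted WNT inhibitor, at 11.8, 122, 387 and 100.2 CPM. In post-transplant over cyAC, 3 of the 12 genes that passed the filter were at least 2-fold higher (*DKK3*, *FMOD* and *SEMA3D*) and 5 lower (*WIF1*, *VIT*, *TPPP3*, *CD44* and *VCAM1*), beside 10.2% and 14.8% of all genes. *GDF5*, a joint-forming growth factor gene, was at 1.27 CPM or less in every sample, and *EPHA3* had no reads in the 320 cells of any of the 4 tissues (0.137 CPM in the larger pre-transplant set).

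**Figure D5:**
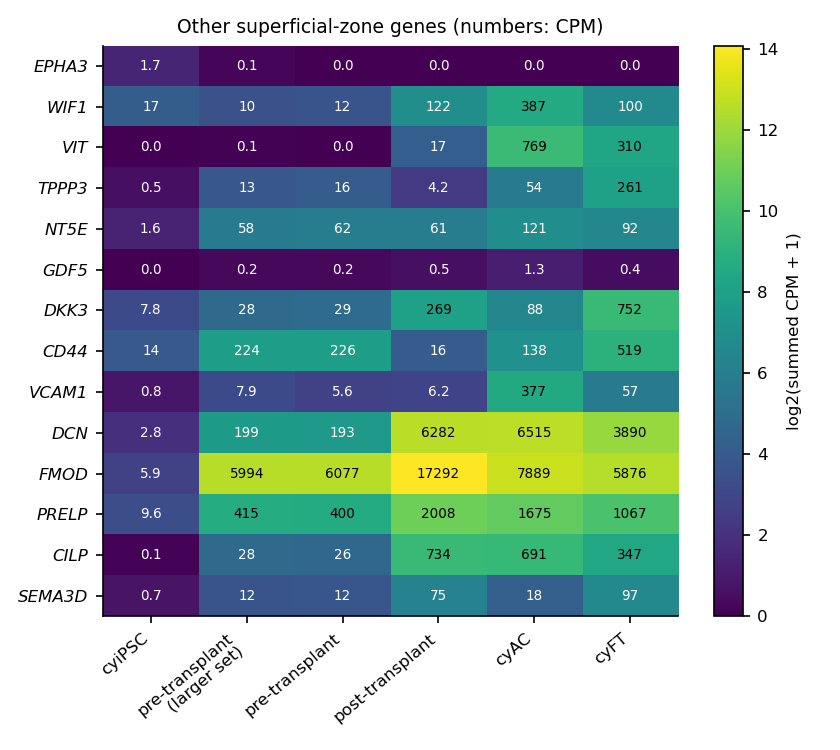
Summed CPM (numbers in the cells) and log2 of CPM plus 1 (colour) of the 14 other superficial-zone genes listed, in the 5 samples and the larger pre-transplant set; levels are to be compared along a row. *DCN*, *PRELP* and *CILP* are at similar levels in post-transplant cyiPS-Cart and cyAC, whereas *VIT* (17.4 and 769 CPM) and *VCAM1* (6.23 and 377 CPM) are not.

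Of the joint interzone genes, which mark the tissue that forms the joint in the embryo, 8 of 9 were in the matrices and 3 passed the filter in post-transplant over pre-transplant. Of these 1 was past 2-fold, *OSR2*, at 6.06 and 23.4 CPM, beside 8.18% of all genes higher and 18.6% lower. The middle and deep zone genes gave 2 of 8 at least 2-fold higher after transplantation (*CHAD* and *FRZB*) and 3 lower (*MATN3*, *CNMD* and *EPYC*), beside the same 8.18% and 18.6%. *CHAD*, the chondroadherin gene, was at 356 CPM before, 1436 CPM after, 15717 CPM in cyAC and 7669 CPM in cyFT.

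Within samples, the superficial-zone list was also set against *PRG4*. In the larger pre-transplant set, *DCN*, *PRELP* and *CILP* were at least 2-fold higher in cells with *PRG4* reads, 3 of the 10 superficial-zone genes tested, beside 0.237% of all genes. *CILP* was at 81.9 against 15.6 CPM. With the 320 cells of that tissue, 2 of 10 were higher (*PRELP* and *CILP*) and 2 lower (*WIF1* and *CD44*), beside 1.64% and 4.12% of all genes, and the median log2 difference of the 10 was -0.21. In cyAC, 4 of 12 (*VCAM1*, *FMOD*, *CILP* and *SEMA3D*) were higher in the high tertile and *DKK3* was lower, beside 5.58% and 6.79% of all genes. In post-transplant cyiPS-Cart, 0 of 8 passed 2-fold, beside 4.23% of all genes higher and 5.29% lower. In cyFT 1 of 12 was higher (*WIF1*) and 0 lower, beside 6.08% and 4.84%, which is near the background.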

How the data were processed

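Single cells of cynomolgus monkey tissue were profiled by the authors with TAS-Seq on the BD Rhapsody system. Per the study's methods, reads were trimmed (cutadapt 3.4 in the submitters' processing notes) and aligned with Bowtie2 (2.4.2) to Ensembl cDNA and ncRNA of Macaca_fascicularis_6.0. Counts were then corrected for background by a model of each gene's count distribution. The deposited matrices hold the authors' counts of reads per gene and cell, and each tissue had been reduced to 320 cells by them. No step that counts molecules was described. A total of 3 transcriptome libraries was used and 3 hashtag libraries were not used here.

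Counts were summed per sample and divided by the total (Python 3.11.15, pandas 2.3.3, scipy 1.17.1). With 1 sample per condition no test was made. A gene was counted as higher or lower at 2-fold or more on log2(CPM + 1), among genes that reached 10 CPM, and were read in 10% of cells, in either group. Low values are understated by the pseudocount of 1. Thinning drew 12191 reads per cell (30967 for cyiPSC and the larger pre-transplant set), leaving out 60, 353, 1, 0, 12 and 32 shallower cells in the order cyiPSC, larger set, pre-transplant, post-transplant, cyAC, cyFT. TMM factors came from edgeR 4.0.16 in R 4.3.3. Doublets were kept. Scrublet, run per library in scanpy 1.11.5, marked 14, 0, 0, 8, 2 and 2 cells in the same order. The 20 pre-transplant cells that were not in the larger set were not scored and count as unmarked. Few cells were marked in the first library, and whether the caller worked there was not tested. On data simulated with counting error alone for post-transplant over pre-transplant, 100% of 200 changed genes among 7016 were recovered in the right direction. The planted changes were 2-fold or more and the spread between cells was not simulated. This checks the arithmetic only and says nothing on false calls in the real data.

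The genes and lists were chosen with earlier results of these data known. The genes named are the 6 genes themselves, the list members with at least 10 CPM in any sample, and the genes most like each of the 6 by mean Spearman rho (3 each; for *PRG4* the 5 highest and 5 lowest), among genes read in at least 25% of cells; *GDF5*, *EPHA3*, *VWF* and *CDH5*, below that level, were named after their values were seen. Gene symbols are those of the files, and the 6 were matched by symbol to RefSeq names (6 of 6). RefSeq's assembly differs from that of the files, so no coordinates or sequences are given. A list of genes that TGF-β is known to raise is not reported here, for reasons unrelated to its values.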

Additional observations from a re-analysis of the deposited data

Results flagged for a closer look

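In 3 cases a gene was higher in the cells with most *PRG4* of 1 tissue and lower in those of another. Each lay beyond counting error, whose intervals are narrower than the true uncertainty. The difference between the tissues was not tested in any of them, since each tissue was 1 sample. *ABI3BP* had a log2 difference between the outer *PRG4* tertiles of 1.42 in cyAC and -0.08 in post-transplant cyiPS-Cart, 1.496 apart. *CLU* had 0.76 in cyAC and -0.28 in post-transplant cyiPS-Cart, 1.04 apart. *ERG* had 0.41 in cyFT and -0.27 in post-transplant cyiPS-Cart, 0.68 apart. In the cyFT cells at or above 10000 *PRG4* CPM, however, *ERG* was lower than in the low tertile. Over single cells, *ABI3BP* with *PRG4* gave a rho of 0.09 in cyAC and 0.10 in post-transplant cyiPS-Cart, with no change of sign. *CLU* with *PRG4* gave 0.44 and -0.12 in the same tissues. *ERG* with *PRG4* gave 0.06 in cyFT and -0.01 in post-transplant cyiPS-Cart.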

How the results depend on the processing

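No paired analysis was possible because each condition was 1 sample with no replicate. Of 300 recomputed log2 ratios between samples, 173 moved by less than their counting interval and 9 took the other sign. Of the 167 past 2-fold as reported, 4 were under it when recomputed, and 4 others passed it. The differences by *PRG4* level within samples were less stable. Of 225 recomputed, 113 moved by more than their counting interval and 39 took the other sign, with 7 of 18 past 2-fold lost and 19 gained.

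For post-transplant over pre-transplant, the log2 ratios with TMM factors were 1.48 (*PRG4*), 0.31 (*ERG*), 2.23 (*ABI3BP*), -0.14 (*THBS4*) and 2.51 (*CLU*). TMM moved the median of all genes by 0.22, so each gene moved with it. With the larger pre-transplant set they were 0.90 (*PRG4*), 0.33 (*CREB5*) and -0.43 (*THBS4*). With the mean of per-cell CPM they were 1.13 (*PRG4*), 0.41 (*CREB5*) and 2.33 (*CLU*), and with a pseudocount of 10, 0.38 (*CREB5*) and 1.90 (*ABI3BP*). Without mitochondrial genes they were 1.21 (*PRG4*), -0.42 (*THBS4*) and 2.23 (*CLU*). With the stricter cell filter they were 1.30 (*PRG4*), -0.32 (*THBS4*) and 2.22 (*CLU*), and without marked doublets 1.30 (*PRG4*). Without the 5% of cells with most reads of the gene they were 2.17 (*PRG4*), -1.06 (*CREB5*) and 2.24 (*ABI3BP*), and *PRG4* in post-transplant over cyFT was 1.09 in place of -2.32. The cause was not tested.

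The number of the other 5 genes at least 2-fold higher in the cells with most *PRG4* was 0 in post-transplant cyiPS-Cart under every alternative run. In pre-transplant cyiPS-Cart it was 0, and 1 with tertiles of the cells with reads or at 10000 CPM or more. In cyAC it was 1, and 0 with the mean of per-cell CPM or with levels of 1000 or 10000 CPM. It was also 1 on thinned cells and for cells with against without *PRG4* reads, but of another gene, *CLU* (1.10) in place of *ABI3BP* (0.66) in the first and *CREB5* (5.18) in place of *ABI3BP* (0.65) in the second, where 311 of the 320 cells had *PRG4* reads. In cyFT it was 0, and 1 on thinned cells or with the mean of per-cell CPM, 2 with tertiles of the cells with reads, without cells with *COL1A1* reads or at 10000 CPM, and 3 at 1000 CPM. The settings by *PRG4* level and without *COL1A1* cells were chosen after seeing the data.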

Other observations

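*COL1A1*, the type I collagen gene of fibrous tissue, was lower in the cells with most *PRG4* in all 5 sets of cells compared. It was at 178 against 2192 CPM in the high and low *PRG4* tertile of cyAC, 6394 against 14960.3 CPM in post-transplant cyiPS-Cart and 11145 against 27691 CPM in cyFT. In the larger pre-transplant set it was at 2594 CPM in cells with *PRG4* reads and 8305 CPM in cells without, and in the 320 cells at 2247 and 8119 CPM. The 2 pre-transplant sets overlap and count as 1 observation. The fibroblast list as a whole differed by tissue. At least 2-fold lower was 1 of 6 tested members, *COL1A1*, in each pre-transplant set, beside 0.237% of all genes in the larger set and 4.12% in the 320 cells, and 1 of 5 in post-transplant cyiPS-Cart, beside 5.29%. With *COL1A2*, 2 of 5 were lower in cyAC, beside 6.79%, and 2 of 4 in cyFT, beside 4.84%. The median log2 difference of the list was 0.25, 0.06, 0.03, -0.78 and -0.96 in the same order. The background correction had left no *COL1A1* count above 0 below 277 in the 320 pre-transplant cells, 497 in post-transplant cyiPS-Cart, 76 in cyAC and 81 in cyFT, and in cyAC the gene was above 0 in 19 of 320 cells. The part of that correction was not tested.

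Of the 5 cyiPSC cells with *PRG4* reads, 3 had *COL2A1* reads, 3 *ACAN* reads and 2 reads of *NANOG*, a pluripotency gene. *COL2A1*, with no count above 0 below 170 in cyiPSC, was read in 7 of the other cyiPSC cells. CyiPSC and the larger pre-transplant set were pooled in 1 library and told apart by hashtags, and the part of hashtag assignment in these 5 cells was not tested.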
